A study of Mus musculus with 9 samples.

Results

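Krüppel-like factors (KLFs) are a family of DNA-binding transcription factors, and 10 of their genes, Klf2, Klf3, Klf4, Klf5, Klf6, Klf7, Klf9, Klf10, Klf13 and Klf15, were followed by name through the deposited counts. All 10 were found among the 50686 genes of the table, and 9 of them had enough counts to be tested, together with 15531 genes in all. The genes were compared between control MC3T3-E1 cells, MC3T3-E1 cells cultured with SB216763 (10 μM, 14 days), and untreated endothelial cells (ECs) of the mouse lung, in 3 RNA-Seq libraries each. MC3T3-E1 is a mouse osteoblast line, so every osteoblast library comes from the same established line, and SB216763 is a small molecule that inhibits the GSK3 kinases. The study asked whether SB216763 moves osteoblasts toward an endothelial identity, and the ECs, which it isolated by cell sorting, served as the reference. Strain, age and number of animals behind the ECs, and the time in culture of the control osteoblasts, are not given in the sources used here. The labels do not state that the 3 libraries of a group came from separate cultures or animals, so the p-values measure the spread between these libraries only.

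The labelled cell types were checked against marker genes. Total counts ran from 30990107 to 68946333 per library, and levels are given in CPM, counts scaled to the effective size of each library. The 6 endothelial markers Cdh5, Pecam1, Kdr, Tie1, Emcn and Vwf summed to 6240.2 to 6425.8 CPM in the ECs. They summed to 3.17 to 3.96 CPM in control and 4.33 to 4.96 CPM in SB216763-treated osteoblasts. Vwf, encoding von Willebrand factor, was higher after treatment at an FDR under 0.01 (1.16 and 2.42 CPM in control and treated cells), and the other 5 did not pass. The 6 osteoblast markers, including Col1a1 and Sp7, summed to 20090.2 to 28687.1 CPM in controls, 2826.1 to 2974.8 CPM after treatment and 28.9 to 38.3 CPM in the ECs. In the ECs, the 4 blood cell markers summed to 46.6 to 48.9 CPM, nearly all of it Cd68, with Cd3e under 3 counts in every library. The 3 lymphatic endothelial markers summed to 248.0 to 264.4 CPM there, with Prox1, the defining lymphatic regulator, under 3 counts in every EC library. In bulk RNA, fewer cells of a type and less RNA per cell cannot be told apart.

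KLFs bind GC-rich and CACCC-type DNA through a conserved array of C2H2 zinc fingers at their carboxyl end, and the rest of each protein recruits co-activators or co-repressors. KLF2 and KLF4 are best known in blood vessels, where laminar flow induces them through the MEKK3-MEK5-ERK5 kinases and MEF2 factors, and where they raise anti-inflammatory and anti-thrombotic genes. Other members act in wound responses (KLF6), progenitor growth (KLF5), TGF-β signaling (KLF10), glucocorticoid and thyroid hormone responses (KLF9) and fat or muscle metabolism (KLF15). GSK3 itself enters this family at the protein level, since KLF5 and KLF2 can be marked for degradation through the ligase FBXW7 after phosphorylation. That step is not measured by RNA counts.

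The DNA upstream of 4 members is shown because these genes stand for the patterns described below. Klf2 was lower after treatment and higher in ECs, Klf6 followed the same order at smaller size, Klf4 was lower in ECs alone, and Klf9 was higher in both treated osteoblasts and ECs. The sequences are from RefSeq on GRCm38.p6 and end 1 base before the earliest annotated transcript start. Capitals mark letters that match GGGCGG (a GC box, read as CCGCCC on the other strand) or the MEF2 site, written here as CTA and TAG with 4 bases of any kind between them. These were the 2 motifs found in the stretches.
Klf2, chr8:72318812-72319032, plus strand: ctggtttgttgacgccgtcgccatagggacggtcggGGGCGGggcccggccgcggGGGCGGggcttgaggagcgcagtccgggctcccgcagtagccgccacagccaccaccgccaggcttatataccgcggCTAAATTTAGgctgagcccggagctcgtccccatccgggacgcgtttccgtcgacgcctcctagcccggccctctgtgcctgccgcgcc
Klf6, chr13:5861239-5861481, plus strand: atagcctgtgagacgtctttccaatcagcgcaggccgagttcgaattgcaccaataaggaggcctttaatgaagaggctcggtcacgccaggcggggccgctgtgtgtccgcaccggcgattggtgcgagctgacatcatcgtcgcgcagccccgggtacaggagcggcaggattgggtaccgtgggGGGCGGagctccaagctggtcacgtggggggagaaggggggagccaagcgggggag
Klf4, chr4:55532476-55532725, minus strand: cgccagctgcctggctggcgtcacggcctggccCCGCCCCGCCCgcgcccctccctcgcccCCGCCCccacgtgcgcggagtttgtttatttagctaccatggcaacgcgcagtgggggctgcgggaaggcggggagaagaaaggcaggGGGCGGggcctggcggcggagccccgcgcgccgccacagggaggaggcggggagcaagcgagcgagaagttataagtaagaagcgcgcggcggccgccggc
Klf9, chr19:23140976-23141225, plus strand: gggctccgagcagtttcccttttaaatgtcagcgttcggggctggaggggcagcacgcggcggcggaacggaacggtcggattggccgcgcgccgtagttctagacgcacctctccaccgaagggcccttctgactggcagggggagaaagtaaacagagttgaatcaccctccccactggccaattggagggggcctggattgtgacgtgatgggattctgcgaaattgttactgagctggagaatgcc

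RefSeq windows of 300 bases around the start were found for 8 of the 10 members, those other than Klf5 and Klf10. Over the full windows, Klf2 alone of the 8 held the MEF2 letters, which were present in 3.69% of the 32851 windows of all genes. GC boxes were found in 7 of the 8 windows, with 6 in Klf3, 4 in Klf4, 3 in Klf13, 2 in Klf2, 1 each in Klf6, Klf7 and Klf15, and none in Klf9. This motif stood in 35.7% of all windows. The KLF box CCACCC, searched on both strands like the others, occurred 3 times in Klf3, 3 times in Klf7, and 1 time each in Klf2 and Klf13, against 31.5% of all windows with a match. Neither CTTTGAT, the TCF/LEF site of β-catenin signaling (3.73% of windows), nor TGACGTCA, the cyclic AMP response element (1.79%), was found in the 8 windows. A match of letters describes the sequence and does not show that a factor binds there.

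The 2 flow-responsive members, Klf2 and Klf4, behaved differently from each other. Klf2, a regulator of endothelial quiescence on chromosome 8 (72319033 to 72321656, plus strand, GRCm38), stood at 46.8, 49.9 and 43.2 CPM in the control osteoblasts. In the SB216763-treated osteoblasts it stood at 4.36, 4.72 and 3.35 CPM, and in the ECs at 169.4, 163.4 and 173.1 CPM. The 3 groups did not overlap, and the treated libraries lay on the opposite side of the controls from the ECs. Behind these levels were 123 to 181 counts per treated library and 1245 to 2969 per control library. Treatment lowered Klf2 11.3-fold (log2 fold change -3.50, SE 0.089, Benjamini-Hochberg adjusted p = 7.8e-15, edgeR's quasi-likelihood test). Of all genes tested, 3.39% changed by more in either direction. The ECs exceeded control osteoblasts by 1.85 on the log2 scale (SE 0.067, adjusted p = 2.7e-13, edgeR's quasi-likelihood test) and treated osteoblasts by 5.35 (SE 0.088, adjusted p = 1.1e-17, same test). Those 3 comparisons share libraries and are not independent of one another.

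Klf4, a factor of vascular cells that also belongs to the reprogramming set for pluripotency (chromosome 4, 55527143 to 55532466, minus strand), stood at 180.3, 183.4 and 175.4 CPM in controls. After SB216763 it stood at 174.7, 176.7 and 161.8 CPM, and the ECs had 116.9, 118.1 and 116.3 CPM. Control and treated libraries overlapped, and all EC libraries lay below both. The treated minus control difference was -0.071 on the log2 scale (SE 0.044, adjusted p = 0.16, edgeR's quasi-likelihood test), and scaling by library size alone turned its sign (0.13, adjusted p = 0.00795). The ECs held less Klf4 than controls by 0.62 on the log2 scale (SE 0.045, adjusted p = 2.3e-09, edgeR's quasi-likelihood test). By level per exon length, Klf4 still stood at percentile 91.7 of tested genes in the ECs.

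Set against each other within a library, Klf2 and Klf4 need no scaling between libraries. Per kilobase of exon, the Klf2 to Klf4 ratio was 0.428, 0.45 and 0.407 in controls, 0.0412, 0.0441 and 0.0342 after SB216763, and 2.39, 2.28 and 2.46 in the ECs. Klf4 thus exceeded Klf2 in all 6 osteoblast libraries, and Klf2 exceeded Klf4 in all 3 EC libraries. The mean ratio was 0.428 ± 0.0213 in controls, 0.0398 ± 0.00509 in treated osteoblasts and 2.38 ± 0.0883 in ECs (SD, n = 3). Each pair of groups was separated completely, with a 2-sided exact permutation p of 0.1, the smallest that 3 libraries against 3 can give. The pair was chosen for this ratio after its values were seen.

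**Figure D1:**
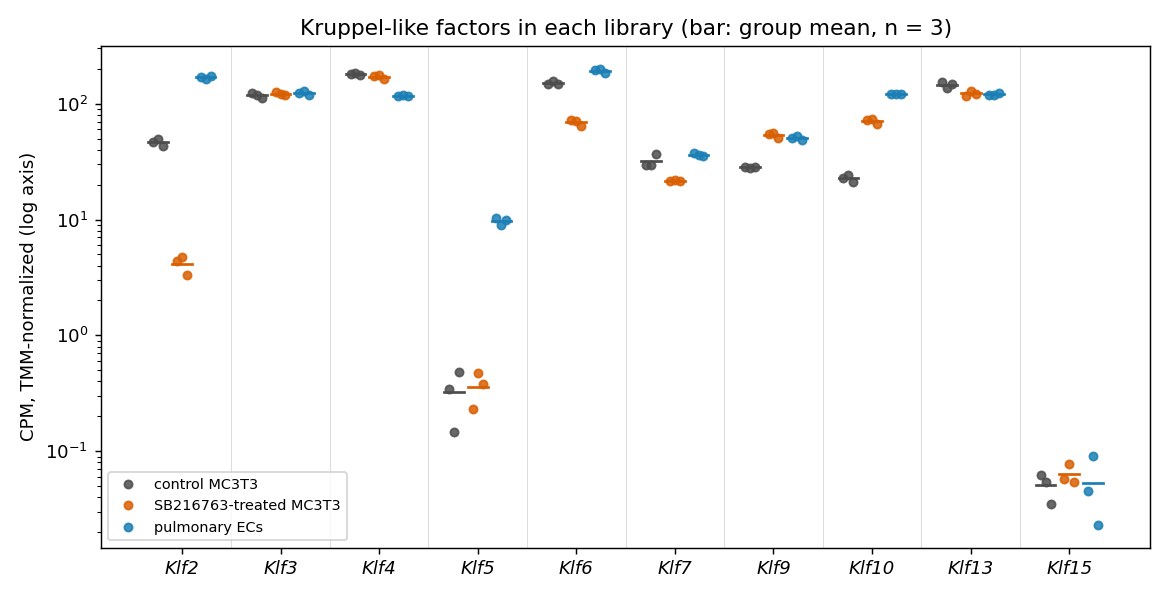
Level of each of the 10 Krüppel-like factor genes in the 9 libraries, in CPM on a log axis, with 1 point per library and a bar at each group mean. The Klf2 libraries fall into 3 separate bands (3.35 to 4.72 CPM treated, 43.2 to 49.9 control, 163.4 to 173.1 EC), the Klf3 groups lie on top of each other, and Klf15 is close to 0 throughout.

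Klf6 and Klf7 are close relatives in sequence. Klf6, induced in vessel walls and liver after injury (chromosome 13, 5861482 to 5870394, plus strand), stood at 147.1, 156.5 and 149.1 CPM in controls, at 71.95, 71.1 and 64.3 CPM after treatment, and at 192.4 ± 8.03 CPM in ECs (SD, n = 3), the lowest EC library having 184.0 CPM. Its groups stood in the same order as those of Klf2 and did not overlap. Klf6 was 2.18-fold lower after treatment (log2 fold change -1.13, SE 0.053, adjusted p = 1.5e-11, edgeR's quasi-likelihood test). The EC excess over controls was 0.35 on the log2 scale (SE 0.051, adjusted p = 1.1e-05, edgeR's quasi-likelihood test). A test against a 1-unit log2 change gave an adjusted p of 0.0203 for the Klf6 fall, above the threshold of 0.01.

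Klf7, known from neuron and fat cell biology (chromosome 1, 64029447 to 64122282, minus strand), stood at 29.7, 29.3 and 36.6 CPM in controls and at 21.5, 22.1 and 21.4 CPM after treatment. The treated libraries were the lowest of the 9, with a difference of -0.55 on the log2 scale (SE 0.072, adjusted p = 4.3e-06, edgeR's quasi-likelihood test). The ECs had 37.3, 36.0 and 35.6 CPM, a range that the third control library fell into. Their difference from controls was 0.20 (SE 0.069, adjusted p = 0.0137, edgeR's quasi-likelihood test), short of the threshold. Without control replicate 3 it was 0.28 and passed (adjusted p = 1.2e-04, same test).

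Klf5, a growth-promoting factor of epithelial and smooth muscle progenitors (chromosome 14, 99298691 to 99315036, plus strand), was higher in the ECs than in both osteoblast groups. By level per exon length, it stood at percentile 36.8 of tested genes in the ECs. Controls gave 22, 8 and 14 counts, treated osteoblasts 8, 18 and 14 counts, and ECs 451, 294 and 427 counts. The EC level of 9.73 ± 0.703 CPM compared with 0.326 ± 0.171 CPM in controls and 0.36 ± 0.121 CPM after treatment (SD, n = 3). That was a 32.2-fold excess over controls (log2 fold change 5.01, SE 0.20, adjusted p = 1.1e-12, edgeR's quasi-likelihood test). Between treated and control osteoblasts the difference was 0.27 with an SE of 0.38 (adjusted p = 0.529, same test), and it changed sign to -0.12 without control replicate 2. With 8 to 22 counts per osteoblast library, a change of modest size was not detectable at this depth.

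Klf10, Klf9 and Klf13 carry domains that recruit the SIN3A co-repressor. Klf10, first described as an early gene induced by TGF-β in osteoblasts (chromosome 15, 38291463 to 38300706, minus strand), stood at 22.8, 24.1 and 21.1 CPM in controls. It stood at 71.8, 73.0 and 67.2 CPM after SB216763 and at 121.1, 121.0 and 120.8 CPM in the ECs. Here the treated libraries lay between the controls and the ECs, without overlap. Treatment raised Klf10 3.11-fold (log2 fold change 1.63, SE 0.053, adjusted p = 1.4e-13, edgeR's quasi-likelihood test), and 14.9% of tested genes changed by more. The ECs were 5.32-fold above controls (log2 fold change 2.41, SE 0.053, adjusted p = 3.5e-16, edgeR's quasi-likelihood test). Treated osteoblasts remained below the ECs by 0.78 on the log2 scale (SE 0.049, adjusted p = 3.7e-10, same test).

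Klf9, a GC-box binding factor that responds to glucocorticoids and thyroid hormone (chromosome 19, 23141226 to 23168134, plus strand), had 28.6, 27.6 and 28.4 CPM in controls. Treated osteoblasts had 54.5, 55.3 and 50.1 CPM, and ECs had 50.5, 52.3 and 48.4 CPM. Treatment raised it 1.89-fold (log2 fold change 0.92, SE 0.049, adjusted p = 8.9e-11, edgeR's quasi-likelihood test), and the treated and EC libraries overlapped. Their difference was 0.082 (SE 0.048, adjusted p = 0.123, edgeR's quasi-likelihood test), and it became 0.16 with an adjusted p of 0.00432 under scaling by library size alone. Klf13, a relative of Klf9 known from T cells and heart (chromosome 7, 63886351 to 63938915, minus strand), had 152.7, 135.7 and 148.2 CPM in controls, 117.4, 128.6 and 121.1 CPM after treatment and 118.4, 118.8 and 123.1 CPM in ECs. Both of the latter groups lay below every control library. Its treated minus control difference was -0.25 (SE 0.051, adjusted p = 4.0e-04, edgeR's quasi-likelihood test). Under scaling by library size alone, which shifted the median of all genes to 0.22, that difference was -0.046 with an adjusted p of 0.39.

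Klf3, which binds the co-repressor CtBP and acts in blood and fat (chromosome 5, 64803388 to 64832901, plus strand), was alike in level across the study. It had 122.7, 118.0 and 112.6 CPM in controls, 126.7, 120.5 and 119.1 CPM after treatment and 124.3, 127.5 and 118.3 CPM in ECs, and all 3 groups overlapped. The treated minus control difference was 0.051 with an SE of 0.048 (adjusted p = 0.349, edgeR's quasi-likelihood test). Scaling by library size alone made it 0.26 with an adjusted p of 1.4e-04, close to the shift of the median gene. Klf15, a metabolic regulator of muscle, fat and liver (chromosome 6, 90462576 to 90475238, plus strand), had 4, 3 and 1 counts in controls, 2, 3 and 2 after treatment and 2, 3 and 1 in ECs. It was not tested, and at 1 to 4 counts per library no difference was detectable.

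Under the cutoffs used for the series, a log2 fold change of 2 or more in size with an FDR under 0.01, Klf2 was the 1 member lowered by SB216763 and no member was raised. Of all genes tested, 5.84% were lowered and 3.81% raised past these cutoffs. At an FDR under 0.01 with any fold, 2 members were higher after treatment (Klf9 and Klf10) and 4 lower (Klf2, Klf6, Klf7 and Klf13), beside 32.9% of all genes higher and 32.0% lower. These shares stood for 5117 genes higher and 4966 lower, and scaling by library size alone gave 6722 higher and 3828 lower. Calls at any fold were thus common among all genes. At a log2 fold change of 1 or more in size, Klf10 was higher and Klf2 and Klf6 were lower, beside 11.1% and 13.0% of all genes. In the ECs against controls, Klf5 and Klf10 were higher past the cutoffs and no member was lower, against 13.5% and 9.87% of all genes. With any fold, 5 members were higher in ECs (Klf2, Klf5, Klf6, Klf9 and Klf10) and 2 lower (Klf4 and Klf13), with 39.0% and 37.9% of all genes. In treated osteoblasts against ECs, Klf2 and Klf5 were lower past the cutoffs, where 15.0% of all genes were lower, and no member was higher, where 10.3% were. With any fold, Klf4 was higher (38.3% of all genes) and 5 members were lower (Klf2, Klf5, Klf6, Klf7 and Klf10; 40.3% of all genes). The median log2 fold change of the 9 tested members was -0.071 for treated against control and 0.35 for ECs against control, beside 0.014 and 0.0074 for all genes.

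**Figure D2:**
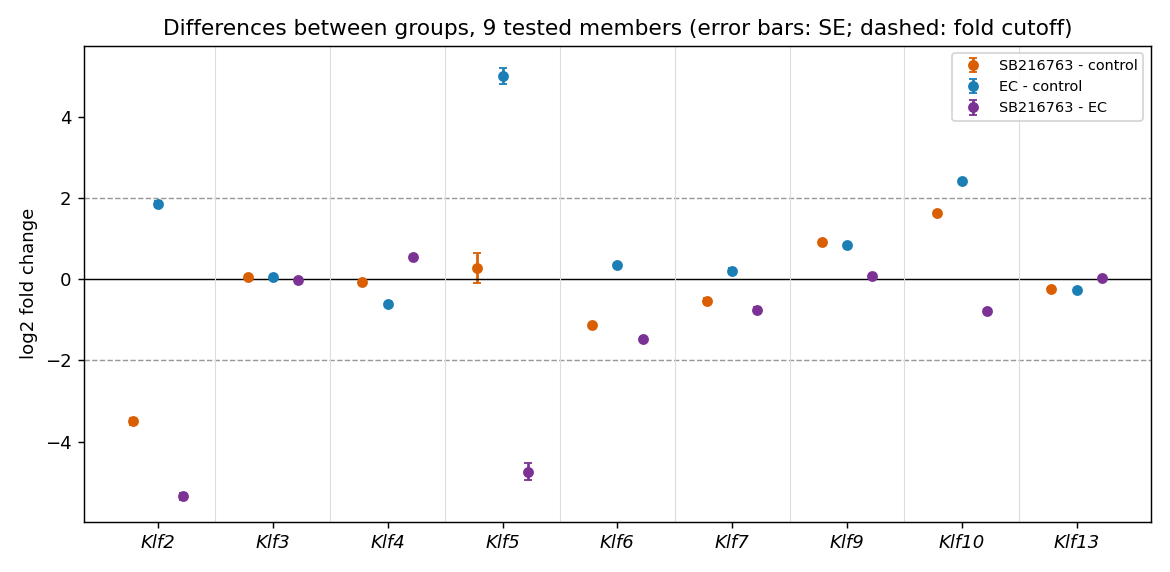
Log2 fold change of the 9 tested members in each of the 3 comparisons, with bars of 1 standard error and lines at the cutoffs of 2 and -2. After SB216763 only Klf2 lies past a cutoff (-3.50), while Klf10 (1.63) and Klf6 (-1.13) lie between 1 and 2 in size.

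**Figure D3:**
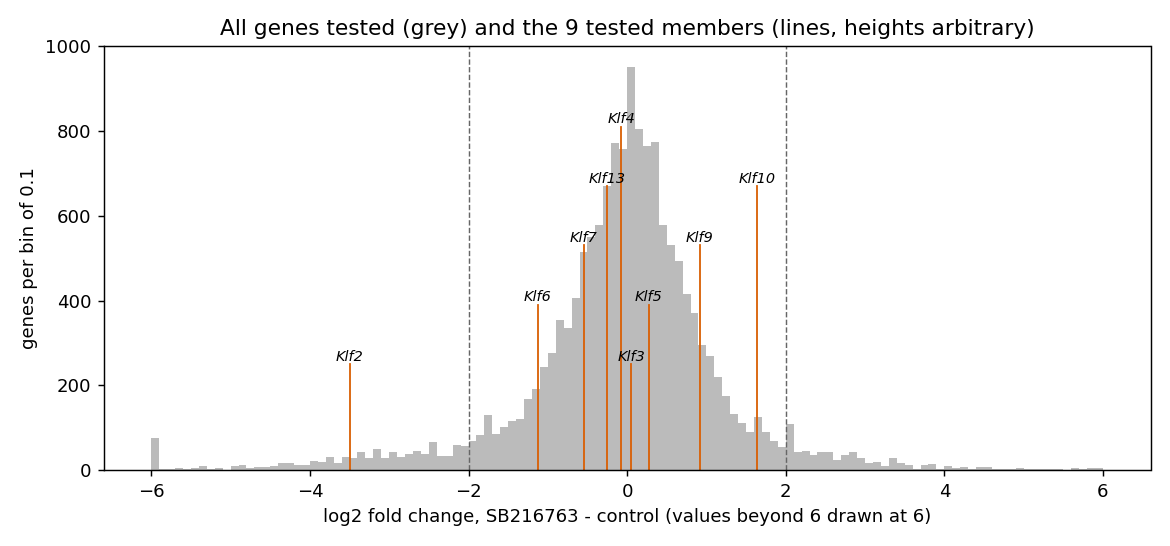
Distribution of the log2 fold change of all 15531 tested genes, SB216763-treated against control osteoblasts, with the tested members marked. Klf2 lies in the lower tail, and 3.39% of all genes changed by more in either direction. Klf3, Klf4 and Klf13 lie near the median of 0.014.

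Since gene length differs between members, levels of different genes were compared as FPKM, the CPM per kilobase of exon. In control osteoblasts Klf4 was the most abundant member at 58.9 FPKM, followed by Klf6 at 34.4 and Klf2 at 25.3 FPKM. After treatment Klf4 still led at 56.1 FPKM, Klf10 came next at 16.9 FPKM, and Klf2 had dropped to the eighth place at 2.24 FPKM. In the ECs Klf2 led with 91.3 FPKM, ahead of Klf6 at 43.8 and Klf4 at 38.4 FPKM. By percentile among tested genes, Klf2 went from 86.5 in controls to 40.9 after treatment, against 97.1 in ECs.

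The summed level of the 10 members was 163.6 ± 3.24 FPKM in controls, 131.9 ± 5.74 FPKM after treatment and 246.2 ± 0.621 FPKM in ECs (SD, n = 3). Klf2 made up 15.4% of that sum in controls, 1.69% after treatment and 37.1% in ECs. Klf4 made up 36.0%, 42.5% and 15.6%. Klf10 had 3.31% in controls, 12.8% after treatment and 11.8% in ECs. Shares move with the sum, which differed between groups. By share, treated osteoblasts stood nearer the ECs than controls did for Klf7 and Klf10. They stood farther for Klf2, Klf3, Klf4, Klf6, Klf9 and Klf13, and Klf5 and Klf15 held the smallest shares. For Klf13 the control (10.8 to 12.3%) and treated (11.6 to 12.8%) libraries overlapped. Levels read differently. Klf7 had 3.92 FPKM in controls, 2.66 FPKM treated and 4.46 FPKM in ECs, so its level moved away from the ECs. Klf10 had 16.9 FPKM treated and 29.0 FPKM in ECs. Klf9 had 11.1 FPKM treated and 10.5 FPKM in ECs, with shares of 8.39% and 4.25%. Klf4 had 58.9 FPKM in controls and 56.1 FPKM after treatment. Taking the longest annotated transcript as gene length gave Klf3 12.3% in place of 6.40% in controls, and left Klf4 first in both osteoblast groups (32.3% and 36.3%) and Klf2 first in ECs (33.0%). With that length Klf13 had 12.4% in controls, 12.3% after treatment and 6.79% in ECs, so its treated share was no longer the farther.

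Of the 7 other KLF genes, 3 had enough counts to be tested, and all 3 were lower after treatment at an FDR under 0.01, as were 32.0% of all genes, none past the fold cutoff. Klf8, a CtBP-binding repressor like KLF3, went from 1.97 ± 0.269 to 0.555 ± 0.152 CPM, and the ECs had 11.6 ± 0.616 CPM (SD, n = 3). Klf11, the closest relative of Klf10, went from 13.4 ± 0.889 to 5.69 ± 0.13 CPM, with 19.1 ± 0.516 CPM in the ECs. Klf10 and Klf11 therefore changed in opposite directions, by 1.63 and -1.23 on the log2 scale. Klf16 went from 78.5 ± 2.55 to 55.5 ± 2.73 CPM and was lower still in the ECs, at 30.1 ± 0.818 CPM. The genes Klf1, Klf12, Klf14 and Klf17 had 0 to 5 counts in every library and were not tested.

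The SP factors share the zinc finger array of the KLFs, and 7 of the 9 SP genes were tested. Sp7, encoding the osteoblast regulator osterix, fell by 3.52 on the log2 scale with treatment, from 297.6 ± 11.6 to 26.0 ± 1.36 CPM, a drop close in size to that of Klf2 (-3.50). In the ECs, Sp7 stood at 0.273 CPM, so that Klf2 and Sp7 were both lowered by SB216763 while lying at opposite ends in ECs. Sp4 rose from 11.6 ± 0.625 to 27.5 ± 2.07 CPM. The log2 changes of the broadly expressed Sp1 (0.26), Sp2 (-0.83) and Sp3 (0.23) passed the FDR threshold, and that of Sp8 (0.37) did not. Sp5 had 0 counts in all 6 osteoblast libraries, which allows up to 0.0435 to 0.0968 CPM by library for counting error only, and 1.77 to 2.32 CPM in the ECs.

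Genes around the KLFs were read from lists of known targets and regulators, which describe these libraries and support no claim about KLF activity. Of 8 endothelial genes that KLF2 or KLF4 raise, 6 were tested. After SB216763, 1 of them was higher at an FDR under 0.01 and 3 were lower (Thbd, S1pr1 and Heg1), beside 32.9% and 32.0% of all genes, with a median log2 fold change of -0.40. Aqp1, a water channel, was the member that rose, from 130.1 to 389.9 CPM, and S1pr1, the sphingosine-1-phosphate receptor, had the largest fall among those past that threshold, from 196.9 to 101.8 CPM. Against the control osteoblasts, the ECs were higher for 5 of the 6 and lower for Thbd, beside 39.0% and 37.9% of all genes. Gja4, 1 of the 5, had 0 to 4 counts per osteoblast library and 315 to 464 per EC library. It passed the count filter only through the ECs, so its EC call carries no information. Its treated against control value rests on near-zero counts and enters the median.

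Of 6 genes that KLF2 or KLF4 lower in endothelium, 4 fell with treatment at an FDR under 0.01 (32.0% of all genes), with a median of -1.58 over the list. Ccl2, a monocyte chemokine, went from 6.68 to 0.383 CPM (log2 fold change -4.11), and Edn1, encoding the vasoconstrictor endothelin, from 1.15 to 0.165 CPM (-2.80). Vcam1, a leukocyte adhesion molecule, rose from 69.9 to 212.3 CPM. In the ECs, which had the most Klf2, all 6 were higher than in controls at an FDR under 0.01, beside 39.0% of all genes. Sele, 1 of the 6, had 0 to 2 counts per control library, 0 to 4 per treated library and 1910 to 2562 per EC library. It passed the count filter only through the ECs, so its EC call carries no information. Its treated against control value rests on near-zero counts and enters the median.

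The pathway known to induce Klf2 and Klf4, with the CCM complex that restrains it, was tested for all 10 genes listed, and 2 rose and 4 fell at an FDR under 0.01, with a median of -0.026. Of all genes, 32.9% rose and 32.0% fell at that threshold, which also holds for the counts of co-factors and ligases that follow. None of the 10 passed the fold cutoff. Map3k2, encoding the kinase MEKK2, rose from 45.4 to 114.2 CPM, and Mef2d fell from 117.3 to 82.0 CPM. Of 9 co-repressors and co-activators, 4 rose and 3 fell (median 0.25), led by the acetyltransferase gene Ep300 (64.4 to 102.2 CPM) and the deacetylase gene Hdac2 (244.3 to 113.5 CPM). Of 5 ubiquitin ligase genes, 3 rose and 1 fell (median 0.48). Fbxo32 went from 13.2 to 39.0 CPM, and Fbxw7, whose product marks KLF2 and KLF5, from 31.0 to 20.2 CPM.

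Klf9 is glucocorticoid-responsive, and of 7 such genes 6 were tested, 3 rising and 3 falling with treatment (median -0.11), beside 32.9% and 32.0% of all genes. Hsd11b1, which makes active glucocorticoid, went from 0.138 to 0.664 CPM and is counted among the 3 rising. It had 5 to 7 counts per control library, 22 to 26 per treated library and 157 to 210 per EC library. It passed the count filter only through the treated and EC libraries, so its call carries no information, and its value enters the median. Tsc22d3, encoding GILZ, fell from 85.1 to 37.7 CPM. Whether glucocorticoid signaling had a part in the Klf9 level was not tested. Klf2, Klf4, Klf6 and Klf10 are early-response genes, so 15 classical immediate-early genes were counted. After treatment 5 rose and 5 fell (median -0.012), again beside 32.9% and 32.0%, with Egr3 at 2.65 and 11.2 CPM and Myc at 224.0 and 16.9 CPM in control and treated cells. In the ECs, 12 of the 15 were higher than in controls and 2 lower, beside 39.0% and 37.9% of all genes, with a median of 1.25. The part of an early response in the EC levels of Klf2, Klf6 and Klf10 was not tested.

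**Figure D4:**
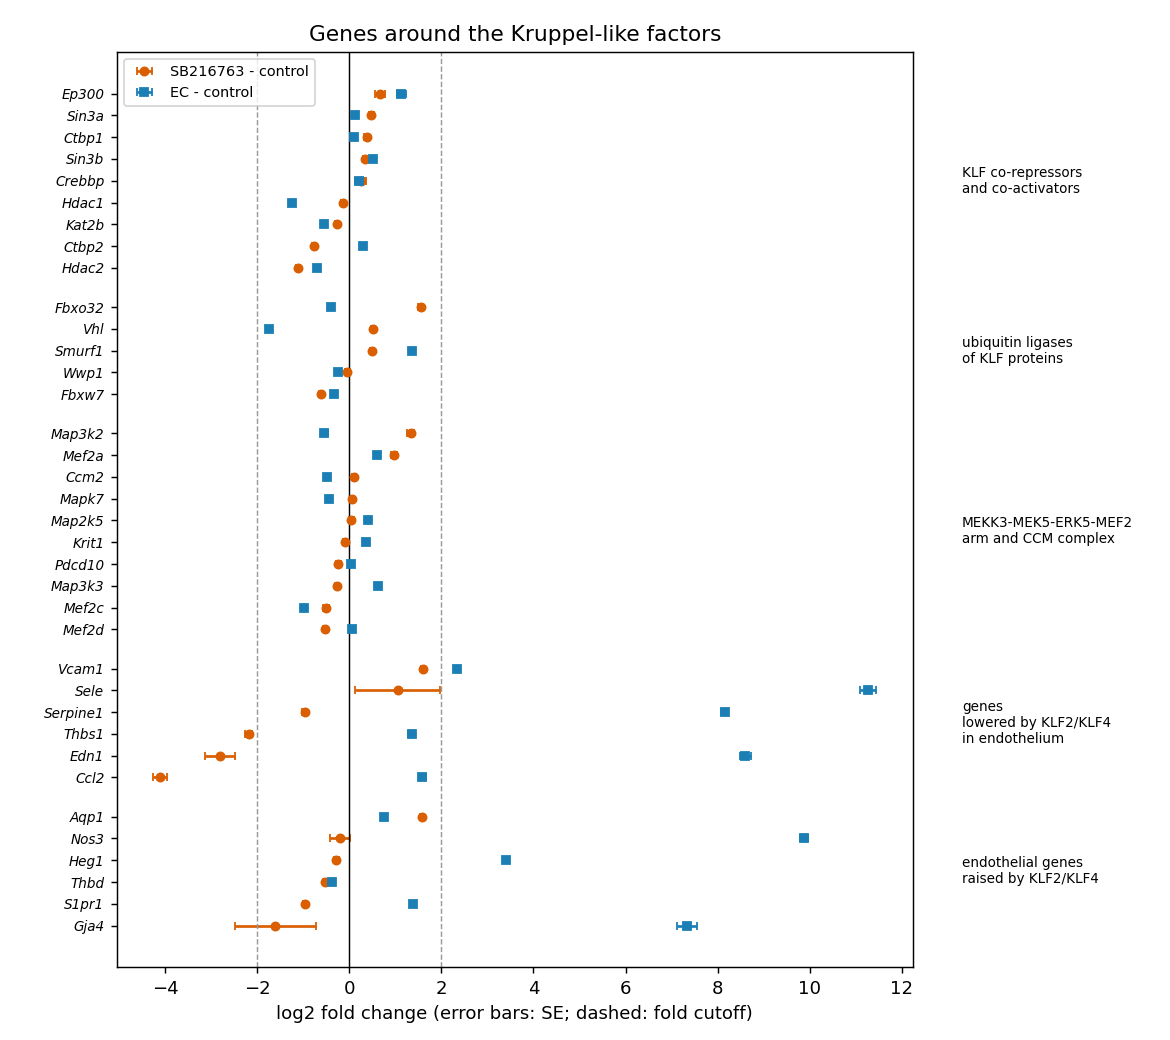
Log2 fold change of the tested genes in the lists of KLF targets, inducing pathway, co-factors and ubiquitin ligases. Each gene has 1 circle for SB216763-treated against control osteoblasts and 1 square for ECs against controls. Nppc and Ptgds were not tested. The glucocorticoid-responsive list, in which Zbtb16 was not tested, and the immediate-early list are not drawn. The treated against control values spread to both sides of 0, with list medians from -1.58 to 0.48.

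The genes whose pattern over the 9 libraries was most like that of Klf2 were Fhl1, Iqgap3 and Ccl2, with root mean square differences of 0.184, 0.216 and 0.225 in centred log2 CPM among 10244 genes compared. Fhl1 had 9.42, 0.928 and 31.2 CPM, and Iqgap3 had 31.9, 2.84 and 95.6 CPM, in control, treated and EC groups. The nearest member was Klf6, at a difference of 1.6. Most like Klf10 were Vcam1, Sft2d2 and Glrx, with differences of 0.0543, 0.0854 and 0.0855, and the nearest member was Klf9 at 0.649.

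The genes next to Klf2, Klf6 and Klf9 were checked as well. The tested neighbor before Klf2 was Gm10282, 13773 bases away, with a log2 fold change of -0.92 after treatment, and the neighbor after it was Eps15l1, 19343 bases away, with 0.12. Those of Klf6 were Akr1e1 (-0.28) and Pitrm1 (-0.25). Next to Klf9, Trpm3 rose from 0.469 to 2.61 CPM and Smc5 fell by 0.41 on the log2 scale. Klf2, Klf4, Klf5, Klf6, Klf10 and Klf15 overlapped no other annotated gene. Klf3, Klf7, Klf9 and Klf13 overlapped small or antisense genes with at most 28 counts in a library, and without a stated strand setting reads of such pairs cannot be told apart.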

How the data were processed

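RNA-Seq of control MC3T3-E1, SB216763-treated MC3T3-E1 and mouse pulmonary ECs was analyzed, 3 libraries each, grouped by the treatment and title labels. The authors aligned reads with STAR 2.5.3a to GRCm38, per the submitters' processing notes, and deposited raw counts per Ensembl gene. The annotation and strand setting are not given in the sources used here. Symbols, coordinates and union exon lengths were taken from GENCODE M21 on GRCm38 for 50376 of 50686 genes.

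Counts were tested with edgeR 4.0.16 (R 4.3.3). The 15531 genes that passed filterByExpr were scaled by TMM and fitted in 1 quasi-likelihood model over all 9 libraries, with Benjamini-Hochberg adjustment over all genes tested. Cutoffs were a log2 fold change of 2 or more in size and an FDR under 0.01. Log2 fold changes used a prior count of 0.125, log2 CPM a prior count of 2, and each SE was derived from the F statistic. Fewer than 3 counts per library were taken as beyond its depth. Limits of this kind cover counting error only. The test was checked on simulated counts.

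The members and lists were chosen with earlier results of these data known, and no list is independent support. By rule, all members and the tested KLF and SP genes were named, with at most the 2 largest changes per direction from each other list (the 1 largest where none passed the cutoffs), and the 3 genes most alike for the member with the largest fall and the largest rise. Other genes named, such as neighbors and list members given only as called, were chosen after their values were seen.

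Results were recomputed with DESeq2 1.42.0, limma-voom (limma 3.58.1), other scalings and filters, fits of 2 groups, testing against a log2 change of 1, a lower fold cutoff, another prior count, a replicate block, and leaving out each library. Other gene lengths and sums for the shares were added after seeing the data.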

Additional observations from a re-analysis of the deposited data

How the results depend on the processing

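The log2 fold changes of Klf2, Klf6, Klf9 and Klf10 between treated and control osteoblasts kept their direction under all 20 alternatives, from -3.61 to -3.29 for Klf2, -1.16 to -0.92 for Klf6, 0.89 to 1.12 for Klf9 and 1.58 to 1.84 for Klf10. With a fold cutoff of 1 on the log2 scale, 1 member was higher and 2 were lower after treatment. Tested against a log2 fold change of 1, 1 member was higher. All-gene counts after treatment were then 1726 higher and 2015 lower, or 1042 higher and 1411 lower by that test. The lower fold cutoff gave 3295 higher and 2716 lower in ECs against controls, and 2978 higher and 3608 lower in treated osteoblasts against ECs. Scaling by library size only moved the all-gene medians to 0.22 (treated against control), 0.13 (ECs against control) and 0.056 (treated against ECs). At any fold it gave 4 members higher and 3 lower after treatment. It gave 7 higher in ECs than in controls, with Klf3 and Klf7 added, and 2 higher in treated osteoblasts than in ECs. It reversed Klf4, treated against control (0.13). The cause was not tested.

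Leaving out 1 library, Klf5, treated against control, ran from -0.12 (without control replicate 2) to 0.51. Klf3, treated against ECs, ran from -0.035 to 0.015, with a sign other than its own without SB216763 replicate 2, SB216763 replicate 3 or EC replicate 2, and also under library size only (0.064), upper-quartile scaling (0.0029), no filter (0.019) and the 2 groups compared alone (0.017). Klf13, treated against ECs, ran from -0.0050 (without SB216763 replicate 2) to 0.063. None of these values passed the threshold. Without control replicate 3, 6 members in place of 5 were higher in ECs than in controls at any fold, Klf7 being the one added, and no other count of members called moved when 1 library was left out.

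Deviations from the group mean had correlations of -0.0392 to 0.1235 over the 9 same-numbered pairs of libraries. The highest was between control replicate 2 and SB216763 replicate 2. Differently numbered pairs ran from -0.1235 to 0.0772. The labels do not say whether same-numbered libraries were prepared together, and these correlations do not decide it. With the replicate block, Klf2 changed by -3.49 (adjusted p = 3.9e-14, edgeR's quasi-likelihood test), 581 genes were higher and 901 lower after treatment, and no count of members changed. Depth limits Klf15 and, in osteoblasts, Klf5.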
